A study of Mus musculus with 3 samples.

Results

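Iron handling genes were described in mouse dorsal skin through 7 members: Cp, Slc40a1, Fth1, Ftl1, Tfrc, Slc11a1 and Slc11a2. They were chosen by symbol from a table of 32285 genes, and all 7 were found in it. The set was picked because Cp was low in the macrophages of WTUV, so the WTUV against WTctrl difference in Cp macrophages is a description here and not a finding. The data were single-cell RNA sequencing of skin cells enriched with CD45 beads, in 3 libraries of male C57Bl/6 mice aged 8 weeks with hair follicles in telogen. WTctrl was WT skin without UVB, and WTUV was WT skin after 3 exposures to UVB, given every other day. RPUV was RP skin after the same 3 exposures. RP mice carry Rosa26-rtTA and Tre-Ptgs2, a pair of alleles by which doxycycline switches on rat Ptgs2 (Cox-2) in cells of all types. Whether the WT mice had doxycycline is not given in the sources used here.

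Each group was 1 library, so no difference between groups has a replicate check, and no test or p-value is given. The intervals below are 95% intervals that cover counting error only. Levels are in CPM, the UMIs (transcript molecules) of a gene in each 1000000 UMIs counted in the same cells. WTctrl and RPUV were sequenced on the same flow cell and WTUV on another, so the run and the group cannot be told apart in any comparison with WTUV.

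Iron enters most cells on transferrin, through the transferrin receptor encoded by Tfrc, and crosses the endosome membrane through the transporter encoded by Slc11a2. Macrophages also take up iron in dying red cells and release it from heme with heme oxygenase. Ferritin, built of heavy chains (Fth1) and light chains (Ftl1), stores iron, ferroportin (Slc40a1) is the exporter of iron from cells, and ceruloplasmin (Cp) is a copper enzyme that oxidises iron as it leaves. Slc11a1 encodes a metal transporter of the phagosome membrane known for its part in resistance to bacteria within macrophages. Several of these mRNAs carry an iron-responsive element, a hairpin bound by the iron regulatory proteins when iron is scarce. Bound before the coding sequence it blocks translation, and bound after it protects the mRNA from decay, so a ferritin mRNA level is not a ferritin protein level.

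The elements are shown because they divide the members into genes whose mRNA level is open to control by iron and genes in which translation is. The hairpin was searched on the sense strand as the loop letters CAGTGN (last base not G) with 5 bases on each side that pair with each other (G with T allowed) and a C before the pairing bases. The search covered 1 canonical GENCODE transcript a gene (GRCm39 annotation). It was found before the coding sequence in Fth1, Ftl1 and Slc40a1, and 4 times after the coding sequence in Tfrc. The loop is in capitals, and each stretch is 29 bases.
Fth1, bases 87 to 115: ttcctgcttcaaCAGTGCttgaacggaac
Ftl1, bases 78 to 106: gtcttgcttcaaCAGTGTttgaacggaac
Slc40a1, bases 166 to 194: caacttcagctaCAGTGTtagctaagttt
Tfrc, bases 3320 to 3348: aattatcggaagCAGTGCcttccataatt
Tfrc, bases 3699 to 3727: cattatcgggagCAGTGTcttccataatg
Tfrc, bases 3764 to 3792: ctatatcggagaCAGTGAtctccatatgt
Tfrc, bases 3811 to 3839: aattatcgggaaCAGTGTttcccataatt
Among all canonical transcripts, 0.0975% of 20510 leader regions (median 217 bases) and 0.45% of 20670 trailing regions (median 1093.5 bases) held such a hairpin. The canonical transcripts of Cp, Slc11a1 and Slc11a2 held none in this search. The reads came from transcript ends, so they do not show which isoform of Cp or Slc11a2 was present.

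After filtering, 5309 (WTctrl), 5225 (WTUV) and 6070 (RPUV) cells remained, with a median of 4246, 10557 and 3774 UMIs per cell. The libraries shared 8 to 11 cell barcodes. Macrophages, named with monocytes as 1 class by their markers, numbered 1797, 2309 and 2178 cells. The class held its defining markers in every library: Csf1r was at 948, 754 and 707 CPM and C1qa at 5075, 3627 and 6330. Ptgs2, the gene that the RP alleles overexpress, was at 8.5 CPM in WTctrl macrophages, 105 in WTUV and 143 in RPUV. Reads of the rat transgene are counted only as far as they match the mouse gene. Cells left without a class were 584, 932 and 604.

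Macrophages were divided by cluster into those with Lyve1, a hyaluronan receptor of macrophages that lie along vessels, and those with less of it, called without Lyve1. A cluster counted as with Lyve1 when its summed cells held at least 300 CPM of Lyve1. This gave 635, 501 and 754 cells with Lyve1 and 1162, 1808 and 1424 without. The part without Lyve1 still held 23 CPM of Lyve1 in WTctrl, 20.1 in WTUV and 86.1 in RPUV, so it was not alike across libraries. In RPUV its cluster 0.1, with 29.6% of the macrophage UMIs, was at 121 CPM and its cluster 2.4 at 286. The cells with Lyve1 lay mostly in different clusters in each library: 1.1 in WTctrl, 1.0 in WTUV, and 1.2 and 1.3 in RPUV. RPUV macrophages shared no cluster of at least 50 cells with WTctrl and only cluster 0.3 with WTUV, so differences of RPUV could not be followed within clusters except there.

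Cp was highest in WTctrl macrophages and lowest in RPUV macrophages. Its level was 112 CPM in WTctrl (104 to 120, 776 UMIs), 37.2 in WTUV (34.9 to 39.5, 1031 UMIs) and 20.2 in RPUV (17.7 to 23, 231 UMIs). No 2 of these counting intervals overlapped. The level of WTUV over WTctrl, which chose the members, was 0.333 (0.303 to 0.365). RPUV was lower than WTctrl by a factor of 5.53 (4.77 to 6.43), a comparison within a single flow cell. It shares its WTctrl value with the comparison that chose the members, so it too is a description. RPUV over WTUV was 0.544 (0.47 to 0.628).

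Both parts of the macrophage class had the same order. They make up the class whose Cp chose the members, so this order too is a description. With Lyve1, Cp was at 202 CPM in WTctrl, 98.5 in WTUV and 44 in RPUV. Without Lyve1, it was at 69.9, 23.1 and 10.5. Macrophages with Lyve1 thus had the higher level of Cp in each library. RPUV over WTctrl was 0.218 (0.18 to 0.263) with Lyve1 and 0.15 (0.117 to 0.191) without. The division mattered for the size: with a limit of 100 CPM of Lyve1, which moves clusters 0.1, 2.4 and 22.1 across, the log2 fold of RPUV over WTctrl without Lyve1 was -4.00 in place of -2.74. Clustering without integration gave -3.88.

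**Figure D1:**
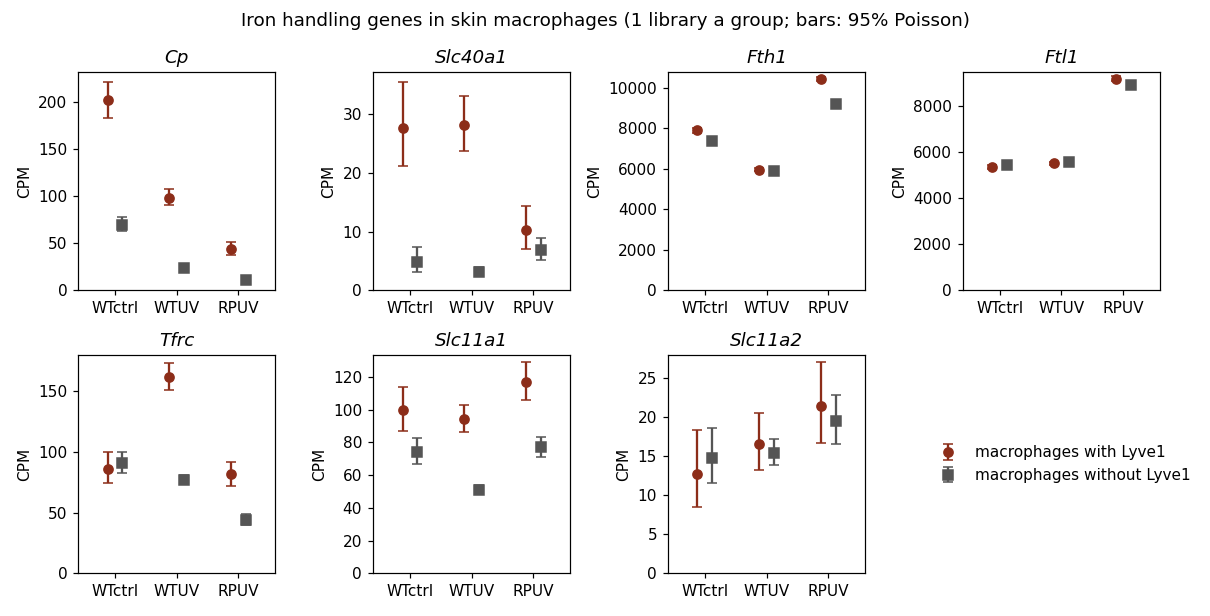
Levels of the 7 genes in macrophages with Lyve1 (circles) and without Lyve1 (squares), in CPM on linear axes from 0, for the 3 libraries; bars are 95% Poisson intervals of the summed counts. Cp steps down from WTctrl to WTUV to RPUV in both parts, from 202 to 44 with Lyve1 and from 69.9 to 10.5 without, while Fth1 and Ftl1 are highest in RPUV.

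The macrophage clusters of WTUV were of 2 kinds with respect to Cp. In 5 of its 12 clusters of at least 50 cells, at most 2 UMIs of Cp were found, a limit chosen after the values were seen, and these held 843 cells and 33.9% of the UMIs of WTUV macrophages. Together they held 2 UMIs of Cp, or 0.213 CPM (0.0258 to 0.769). In the other clusters of WTUV, Cp lay between 23.9 and 127 CPM. In WTctrl, 2 of 9 clusters had at most 2 UMIs of Cp, with 112 cells, 7.23% of the UMIs and 1.99 CPM together (0.0505 to 11.1), and the others lay between 42.1 and 356. Those WTUV clusters with almost no Cp were high in Ccr2, the chemokine receptor of monocytes that enter tissue from blood, at 1140 to 1616 CPM. The 2 such clusters of WTctrl, 4.3 and 4.5, were high in Ccr2 as well, at 1813 and 1908 CPM. Some clusters with Cp also held Ccr2: cluster 2.1 was at 830 CPM in WTctrl and 845 in WTUV, and cluster 0.4 at 535 in WTUV. The remaining clusters with Cp in these libraries held 10.3 to 235 CPM of Ccr2. In RPUV, 1 of 6 clusters had at most 2 UMIs of Cp (cluster 2.0, 440 cells, 21.9% of the UMIs, 0.801 CPM, Ccr2 at 225), and the others lay between 11.9 and 55.2.

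Within clusters that WTUV and WTctrl shared, the gap in Cp was narrower. Cluster 1.1, with Lyve1, held 168 CPM in WTctrl and 127 in WTUV, a fold of 0.756 (0.535 to 1.05). Cluster 1.0, also with Lyve1, held 156 and 95.8, a fold of 0.615 (0.464 to 0.829). Without Lyve1, cluster 0.0 held 83.9 and 68.1 (0.811, 0.54 to 1.18), cluster 0.2 held 91.7 and 72.5 (0.791, 0.531 to 1.22) and cluster 2.1 held 42.1 and 23.9 (0.568, 0.347 to 0.915). The intervals of clusters 1.0 and 2.1 lay below 1, and those of the other 3 included it. With the 6 shared clusters weighted alike in both libraries, a calculation added after the data were seen, the fold of WTUV over WTctrl was 0.747, against 0.333 over all macrophages. The 6 held 1046 of the 2309 WTUV macrophages and 1514 of the 1797 in WTctrl. Clusters 2.2, 2.3, 4.2 and 10.2, with almost no Cp in WTUV, were not among them. In cluster 0.3, Cp was at 25.1 CPM in WTUV and 11.9 in RPUV, a fold of 0.474 (0.187 to 1.01).

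**Figure D2:**
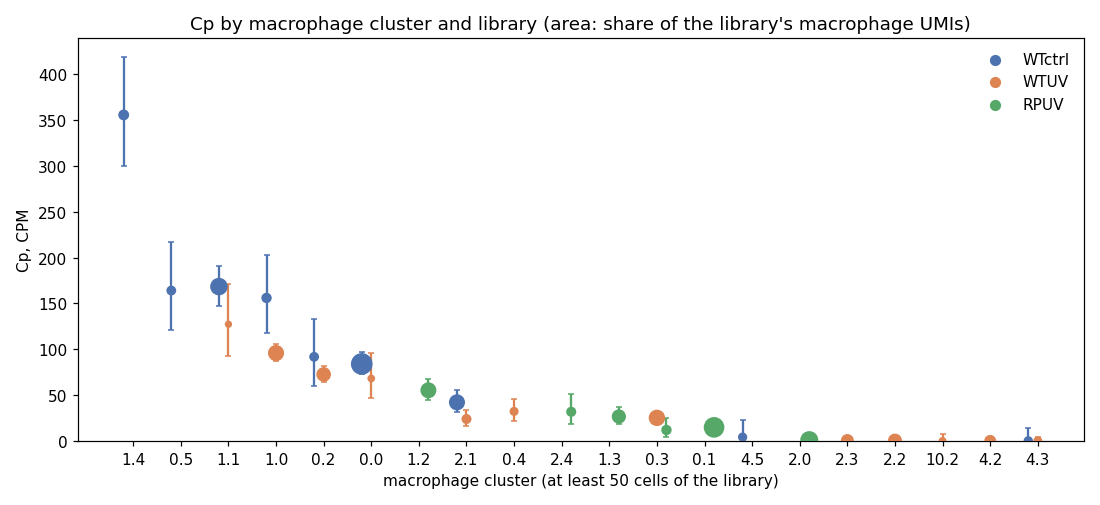
Cp in CPM (linear axis from 0) in each macrophage cluster, coloured by library, for clusters with at least 50 cells of that library; bars are 95% Poisson intervals and the area of a point is the share of that library's macrophage UMIs. The 5 WTUV clusters on the right hold at most 2 UMIs of Cp each and 33.9% of its macrophage UMIs in all, while shared clusters such as 1.1 (168 in WTctrl, 127 in WTUV) lie nearer to each other.

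The share of macrophages with a Cp UMI had the same order once each cell was thinned to 2000 UMIs, which leaves out shallower cells (256, 83 and 201). This share is drawn from the same Cp UMIs as the levels above, so it too is a description. It was 16.7% in WTctrl (14.9 to 18.6), 7.59% in WTUV (6.53 to 8.77) and 4.65% in RPUV (3.77 to 5.68). Unthinned, it was 27.4%, 24.1% and 9.05%, at median depths of 3808, 10969 and 4636.5 UMIs. T cells, which should lack Cp, gave 0.474% (1 of 211 cells) in WTctrl and 0 of 464 cells in WTUV, which allows a share of up to 0.647%. Their median depths were 2328.5 and 5251 UMIs before thinning, and only 15 T cells of RPUV reached 2000 UMIs.

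RNA of other cells moved too, and was measured beside Cp. Dcn, a fibroblast proteoglycan, was at 28.4 CPM in WTctrl macrophages, 13.2 in WTUV and 14 in RPUV. At the Cp to Dcn ratio of fibroblasts in the same library, that much Dcn would bring 0.11 CPM of Cp in WTctrl and 0.277 in RPUV, which is 0.0984% and 1.37% of the macrophage level. Haemoglobin RNA (Hbb-bs) was at 87 CPM in RPUV macrophages, from 18 cells, and at 0.432 and 0.361 in WTctrl and WTUV. Its part in the macrophage values was not tested.

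Fibroblasts, cells that the CD45 beads should remove, had the reverse order for Cp when summed. Their level was 52.7 CPM in WTctrl (42 to 65.4, 83 UMIs in 42 of 353 cells) and 151 in RPUV (131 to 172, 211 UMIs in 52 of 400 cells). RPUV over WTctrl was 2.85 (2.2 to 3.73), against 0.181 in macrophages. The fibroblast cluster with the highest Cp, 11.6, had Cp among its leading genes: 15 RPUV cells held 128 of the 211 UMIs, and 3 WTctrl cells held 21 of the 83. Without that cluster, a calculation added after the data were seen, fibroblasts held 39.7 CPM in WTctrl and 61.2 in RPUV, a fold of 1.54 (1.1 to 2.18). The other fibroblasts lay mostly in different clusters: 251 of the 353 in WTctrl were in 2 clusters that held 25 of the RPUV cells, and 191 of the 400 in RPUV were in a cluster that held 4 of the WTctrl cells and in which RPUV had no UMI of Cp. In cluster 11.1, Cp was at 80.6 CPM in WTctrl (47.8 to 127) and 130 in RPUV (99.3 to 168), and in cluster 11.2 it was at 132 (70.3 to 226) and 9.12 (1.88 to 26.6). The intervals of the first pair overlapped and those of the second did not. The difference between the classes was not tested. All genes of fibroblasts had a median log2 fold of 0.14 in this comparison, and relative to it the log2 fold of Cp was 1.38. Thinned to 2000 UMIs, 6.96% (4.24 to 10.7) of WTctrl fibroblasts and 13.5% (9.35 to 18.6) of RPUV fibroblasts had a Cp UMI, intervals that overlap. WTUV held 9 fibroblasts and gives no value.

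Cp was also measured in pericytes and smooth muscle cells, at 61.1 CPM in WTctrl (29.3 to 112) and 52.7 in RPUV (35.5 to 75.2), and in Schwann cells, at 48.2 (22 to 91.5) and 32.8 (19.1 to 52.5). These pairs of intervals overlapped. Dendritic cells held 0.764 CPM of Cp in WTctrl and 0.282 in WTUV, 3 UMIs each, and no UMI in RPUV, where the floor of 3 UMIs is 2.45 CPM. Keratinocytes held 1.34 to 2.1. Lymphatic endothelial cells had the highest level, 793 CPM in WTctrl (518 to 1162, in 9 of 12 cells) and 1334 in RPUV (730 to 2239, in 6 of 6 cells), from classes under 50 cells. Among classes of at least 50 cells, macrophages with Lyve1 of WTctrl led, followed by RPUV fibroblasts (61.2 CPM without cluster 11.6), with macrophages of WTUV with Lyve1 and WTctrl macrophages without Lyve1 next. With all fibroblasts, the intervals of these 4 did not overlap, while those of WTctrl pericytes and WTctrl Schwann cells overlapped the last 2 of them. The intervals of RPUV pericytes and WTctrl fibroblasts overlapped that of WTctrl macrophages without Lyve1.

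Slc40a1, the exporter that ceruloplasmin works with, was low. Macrophages held 12.1 CPM in WTctrl (9.66 to 15, 84 UMIs), 7.75 in WTUV (6.75 to 8.86, 215 UMIs) and 7.88 in RPUV (6.34 to 9.68, 90 UMIs). WTUV over WTctrl was 0.641 (0.496 to 0.834) and RPUV over WTctrl 0.651 (0.478 to 0.887) in all macrophages, but the 2 parts differed, unlike for Cp. With Lyve1 the levels were 27.7, 28.2 and 10.3 CPM, so that WTctrl and WTUV did not differ beyond counting error (fold 1.02, 0.749 to 1.39) while RPUV over WTctrl was 0.37 (0.236 to 0.572). Without Lyve1 they were 4.86, 3.06 and 6.91. WTUV over WTctrl was 0.63 (0.388 to 1.06) there and RPUV over WTctrl 1.42 (0.861 to 2.42), with intervals that included 1. RPUV over WTUV was 2.26 (1.56 to 3.26). That last direction turned when clusters were made without integration (log2 fold -0.52). Thinned to 2000 UMIs, 4.7% of WTctrl macrophages with Lyve1, 5.56% of WTUV and 1.81% of RPUV had an Slc40a1 UMI.

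Outside macrophages, Slc40a1 was found in keratinocytes, at 6.92 CPM in WTctrl, 8.83 in WTUV and 6.44 in RPUV, with overlapping intervals. Neutrophils of WTUV held 63.5 (32.8 to 111), from 12 UMIs in 10 of 59 cells, and those of RPUV 11.6 (5.81 to 20.8), from 11 UMIs in 11 of 583 cells. RPUV over WTUV in neutrophils was 0.183 (0.0733 to 0.454). Endothelial cells and Schwann cells held no Slc40a1 UMI.

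Ferritin mRNA was highest in RPUV macrophages. The heavy chain Fth1 was at 7534 CPM in WTctrl (7470 to 7599), 5898 in WTUV (5869 to 5926) and 9557 in RPUV (9500 to 9614). The light chain Ftl1 was at 5428 (5373 to 5483), 5569 (5541 to 5597) and 9010 (8955 to 9065). Both chains together took 1.3% of all UMIs of macrophages in WTctrl, 1.15% in WTUV and 1.86% in RPUV. RPUV over WTctrl was 1.27 (1.26 to 1.28) for Fth1 and 1.66 (1.64 to 1.68) for Ftl1.

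Over all macrophages, WTUV and WTctrl were further apart in the heavy chain than in the light chain. Fth1 of WTUV over WTctrl was 0.783 (0.775 to 0.791), and Ftl1 was 1.03 (1.01 to 1.04), a value whose direction turned with the upper limit of genes per cell, with thinning and with equal cluster mix. The ratio of Fth1 to Ftl1 molecules was 1.39 in WTctrl, 1.06 in WTUV and 1.06 in RPUV. Fth1 was lower in WTUV in 5 of the 6 shared clusters, by folds of 0.669 to 0.826, and in cluster 4.3 it was at 3580 and 3543 (fold 0.99, 0.919 to 1.07). Ftl1 went both ways in the shared clusters: it was lower in WTUV in clusters 1.1 (0.787), 0.0 (0.821) and 0.2 (0.935), higher in 4.3 (1.24) and 1.0 (1.08), and within counting error in 2.1 (1, 0.969 to 1.04). Counts of Ftl1 can be split with its near copy Ftl1-ps1, which was at 38.5, 26.1 and 51 CPM in macrophages.

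The ferritin of RPUV was also high in other immune classes. In dendritic cells, Fth1 was at 3454 CPM in WTctrl, 3467 in WTUV and 6968 in RPUV. In T cells it was at 3197, 2823 and 5762, with 54 cells in RPUV. In mast cells it was at 6285, 5954 and 11552, with 57 cells in RPUV. RPUV over WTctrl was 2.02 (1.96 to 2.07) in dendritic cells, 1.8 (1.64 to 1.98) in T cells and 1.84 (1.66 to 2.04) in mast cells.

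Ftl1 in the same classes gave folds of 1.63 in dendritic cells, 1.82 in T cells and 1.51 in mast cells. RNA of some other cells was also higher in T cells and dendritic cells of RPUV. C1qa, a macrophage gene, was higher in RPUV T cells (225 CPM, against 48.7 in WTctrl and 73.4 in WTUV). At the ratio of Fth1 to C1qa in macrophages, that much C1qa would bring 340 CPM of Fth1, or 5.89% of the level in RPUV T cells. For Ftl1 it would bring 18.1% of the level, against 5.35% in WTctrl. In RPUV dendritic cells the same calculation gave 8.74% for Fth1 and 13.8% for Ftl1, against 1.79% and 1.75% in WTctrl. The summed level of 8 neutrophil markers went from 6.62 CPM in WTctrl to 46.7 in WTUV and 328 in RPUV dendritic cells, with 2, 1 and 1 of them at 0. In T cells it was 20.2, 10 and 75, with 7, 2 and 4 at 0. The summed level of 10 keratinocyte markers, none at 0, was 283, 276 and 718 CPM in T cells and 258, 122 and 460 in dendritic cells. For 6 fibroblast markers it was 35.7, 5.16 and 0 CPM in T cells, with 1, 2 and 6 of them at 0. In dendritic cells these were at 51.4, 10.9 and 62.9. For 6 erythroid markers it was 2.38, 0.3 and 0 CPM in T cells and 0.509, 0.282 and 0.817 in dendritic cells. The part of other cells' RNA in the ferritin values was not tested. In mast cells C1qa was at 1122 to 2006 CPM in the 3 libraries, so macrophage RNA was present in that class throughout.

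In cells of the skin's structure, Fth1 of RPUV over WTctrl was 1.26 in fibroblasts, 1.28 in endothelial cells and 1.38 in Schwann cells, and below 1 in pericytes (0.79, 0.73 to 0.855) and keratinocytes (0.725, 0.709 to 0.74). Keratinocytes, with 2401, 1372 and 1740 CPM of Fth1, had their lowest level in WTUV, at 0.571 (0.557 to 0.586) of WTctrl, where the median log2 fold of all keratinocyte genes was -0.14. Ftl1 of pericytes was 733 CPM in WTctrl and 1580 in RPUV, a fold of 2.16 (1.78 to 2.63), so the chains went opposite ways there. In neutrophils they also did: Fth1 was at 14919 in WTUV and 21338 in RPUV, and Ftl1 at 7880 and 5634. Ratios of Fth1 to Ftl1 ran from 1.03 in RPUV macrophages without Lyve1 to 13.8 in Schwann cells of WTctrl. Schwann cells held the highest Fth1 of all classes, 17035 CPM in WTctrl and 23582 in RPUV.

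**Figure D3:**
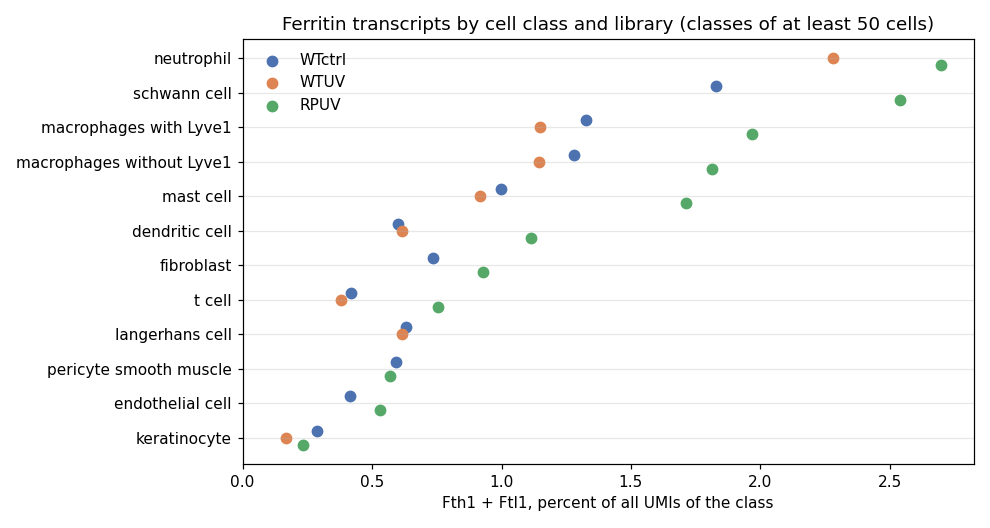
Share of all UMIs taken by Fth1 and Ftl1 together (percent, linear axis from 0) in each cell class of at least 50 cells, 1 point for each library. Neutrophils, Schwann cells and macrophages hold the most. RPUV lies furthest right in macrophages with Lyve1 (1.97% against 1.33% in WTctrl) and without Lyve1 (1.81% against 1.28%). It also does in dendritic cells, T cells, mast cells, neutrophils, Schwann cells, fibroblasts and endothelial cells, and not in keratinocytes or pericytes.

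Tfrc, the receptor that brings iron in, was lowest in RPUV macrophages. Its level was 89.5 CPM in WTctrl (82.6 to 96.8), 92.7 in WTUV (89.2 to 96.4) and 54.9 in RPUV (50.7 to 59.4). RPUV over WTctrl was 0.613 (0.548 to 0.686). With Lyve1 the levels were 86.3, 162 and 81.4, so that WTUV stood apart, at 1.87 times WTctrl (1.6 to 2.2). Without Lyve1 they were 91, 76.9 and 44, and RPUV stood apart.

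Within the clusters shared by WTUV and WTctrl, Tfrc was at 83.4 and 127 CPM in cluster 1.1 (WTctrl first; fold 1.53, 1.05 to 2.17) and at 72.7 and 122 in cluster 2.1 (1.68, 1.27 to 2.22). The folds of clusters 1.0 (1.35, 0.993 to 1.87), 0.0 (1.28, 0.956 to 1.68) and 0.2 (1.07, 0.807 to 1.46) had intervals that included 1. It was 24.9 CPM or less in 4 of the 5 WTUV clusters with almost no Cp, and 36.3 in cluster 10.2. In cluster 0.3, Tfrc was at 98.4 in WTUV and 18.7 in RPUV, a fold of 0.19 (0.0943 to 0.343). Dendritic cells had 42.8, 31.8 and 13.9 CPM of Tfrc, lowest in RPUV. Keratinocytes had the reverse, with 20.4 in WTctrl (17.4 to 23.7), 30.2 in WTUV (26.2 to 34.6) and 33 in RPUV (29.1 to 37.1), where both irradiated libraries lay above WTctrl and did not differ from each other beyond counting error.

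Slc11a1 was at 82.4 CPM in WTctrl macrophages (75.8 to 89.5), 59.2 in WTUV (56.4 to 62.2) and 88.8 in RPUV (83.4 to 94.4). WTUV was the low library and the intervals of the others overlapped. With Lyve1 the levels were 99.9, 94.3 and 117, and without Lyve1 74.3, 51.1 and 77.2. WTUV over WTctrl was 0.718 (0.653 to 0.792) in all macrophages, 0.944 (0.803 to 1.11) with Lyve1 and 0.688 (0.61 to 0.778) without. In the 6 shared clusters the folds ran from 0.811 to 1.15, and each interval included 1. Slc11a1 was not limited to phagocytes: the class of pericytes and smooth muscle cells had the highest level of all classes, 226 in WTctrl (159 to 312, in 24 of 52 cells) and 283 in RPUV (241 to 330, in 86 of 184 cells). Neutrophils followed, with 143 in WTUV (94.1 to 208) and 182 in RPUV (156 to 211). T cells held 3.57 or less and fibroblasts 1.43 or less.

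For Slc11a2, macrophages held 14.1 CPM in WTctrl (11.5 to 17.2), 15.7 in WTUV (14.2 to 17.2) and 20 in RPUV (17.5 to 22.8), with RPUV over WTctrl at 1.42 (1.12 to 1.82). Keratinocytes held 8.89, 11.3 and 9.97, and T cells 19, 23.7 and 32.1, the last from 3 UMIs.

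**Figure D4:**
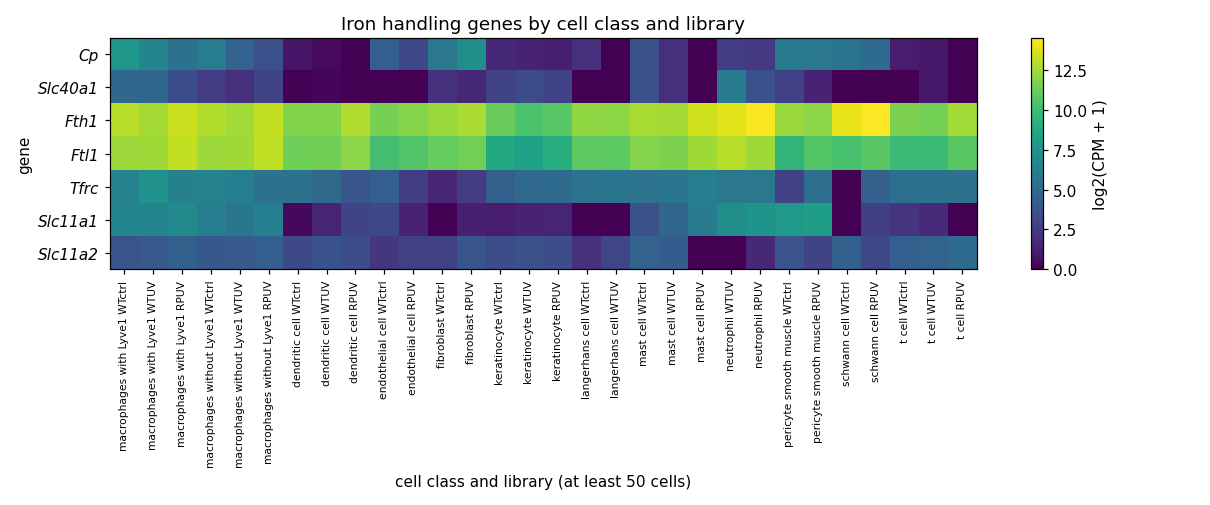
Levels of the 7 genes as log2(CPM + 1), by colour, in every cell class and library with at least 50 cells. Fth1 and Ftl1 are high in every column, and Slc11a1 is high in macrophages, neutrophils and pericytes. Cp is seen in macrophages, fibroblasts, pericytes and Schwann cells and is near 0 in T cells and dendritic cells.

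Set against all genes of macrophages with at least 20 UMIs in the pair of libraries, few members passed 2-fold. In WTUV against WTctrl, the comparison that chose them, 0 of 7 were higher by 2-fold and 1, Cp, was lower, where 7.5% of 12501 genes were higher and 3.02% lower. In RPUV against WTUV, 0 were higher and 0 lower, where 3.84% of 12689 genes were higher and 8.17% lower. In RPUV against WTctrl, 0 were higher and 1, again Cp, was lower, where 6.96% of 11536 genes were higher and 6.86% lower. The median log2 fold of the members was -0.35, 0.36 and 0.11 in these comparisons, and that of all genes 0.03, -0.06 and 0.01. The comparisons share libraries, so their counts are not independent.

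The rest of the iron pathway was taken from a list of 48 genes, of which 47 were in the table. The ferroxidases related to ceruloplasmin were near absent: Heph held 3, 5 and 0 UMIs in macrophages and Hephl1 0, 2 and 3. In RPUV against WTctrl, 34 of the genes reached 20 UMIs, 4 were higher by 2-fold and 1 was lower, against 6.96% and 6.86% of all genes. Hmox1, the heme oxygenase that frees iron from heme, was at 346 CPM in WTctrl, 431 in WTUV and 790 in RPUV, with RPUV over WTctrl at 2.28 (2.18 to 2.39).

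The metal importers Slc39a14 and Slc39a8, which carry zinc and iron without transferrin, were higher in both irradiated libraries. Slc39a14 was at 9.08, 16.3 and 18.4 CPM, with RPUV over WTctrl at 2.03 (1.52 to 2.73). Slc39a8 was at 2.59, 5.95 and 7.62, at 2.94 times WTctrl in RPUV (1.75 to 5.18). Lcn2, a binder of bacterial iron carriers made by neutrophils and other cells, had 0, 8 and 29 UMIs. The floor of 3 UMIs in WTctrl macrophages is 0.432 CPM, so RPUV at 2.54 was at least 5.87-fold higher than that floor; the counting interval of the ratio, which also covers the error of the 29 UMIs, began at 4.48. S100a8, another neutrophil gene, moved with it in macrophages, at 0.288, 2.78 and 20.7 CPM. The summed level of the 8 neutrophil markers, S100a8 among them, went the other way in macrophages, at 139, 114.5 and 103 CPM, with 2, 2 and 1 at 0. In WTctrl macrophages with Lyve1 the sum was 222 CPM with 6 of the 8 at 0, so it rested on few of the markers. Lcn2 was also among the leading genes of keratinocyte cluster 16.4, with 28 of its 32 cells in RPUV. The summed level of the 10 keratinocyte markers in macrophages was 201, 165 and 230 CPM. The part of neutrophil or keratinocyte RNA in the Lcn2 value was not tested. Slc22a17, a receptor for Lcn2, was at 3.46, 2.38 and 1.31 CPM, with RPUV over WTctrl at 0.38 (0.185 to 0.754).

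In WTUV against WTctrl, 33 genes reached 20 UMIs, 2 were higher by 2-fold and 0 were lower, against 7.5% and 3.02% of all genes, a share near that of all genes. These were Slc39a8 (2.29, 1.41 to 3.97) and Smad7, an inhibitor of the BMP and TGF-beta signals, at 4.76 CPM in WTctrl, 20.6 in WTUV and 8.05 in RPUV (WTUV over WTctrl 4.32, 3.04 to 6.34). In RPUV against WTUV, Lcn2 was higher (8.8, 3.92 to 22.3) and Smad7 lower (0.392, 0.311 to 0.489), the only 2 of 34 genes past 2-fold, against 3.84% and 8.17% of all genes. The median log2 fold of the list was 0.11, -0.03 and 0.13 in the order above.

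**Figure D5:**
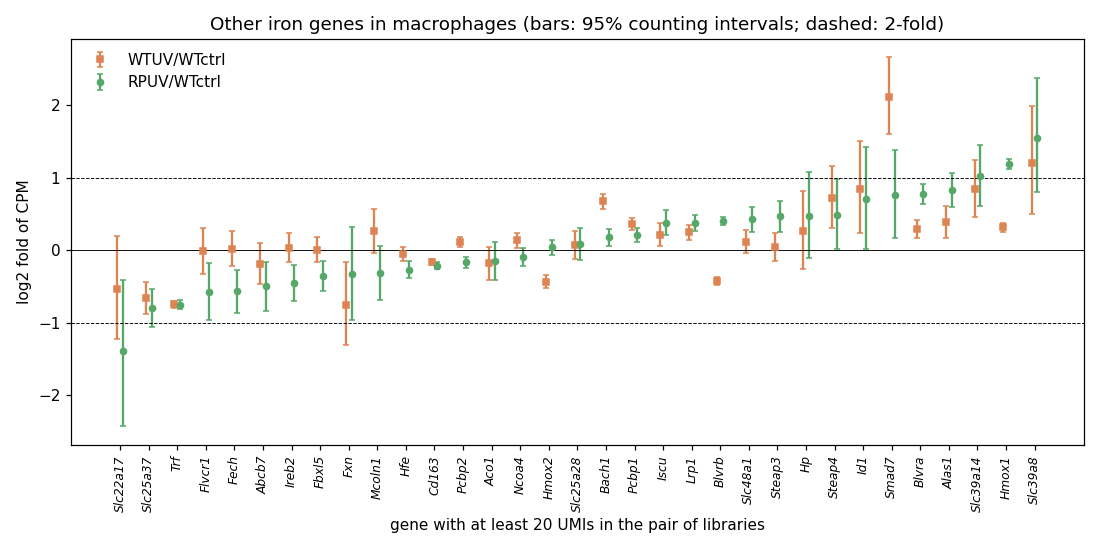
Log2 fold of CPM in macrophages for other iron genes with at least 20 UMIs, WTUV over WTctrl (squares) and RPUV over WTctrl (circles), ordered by the latter; bars are 95% counting intervals and dashed lines mark 2-fold. Slc39a8 and Hmox1 (2.28-fold) lie highest for RPUV, Slc22a17 lowest, and Smad7 is highest for WTUV (4.32-fold); Lcn2 is left out because WTctrl held no UMI.

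The genes whose pattern was most like Cp were found by Pearson's r of log2(CPM + 10) over 30 combinations of class and library, among 8038 genes reaching 50 CPM in at least 1. For Cp they were C1qtnf1 (r = 0.895), Myh10 (0.873), Samd4 (0.844), C1ra (0.841) and Sbf2 (0.814). For Slc40a1 they were C5ar2 (0.84), Tmem164 (0.76), Oasl1 (0.742), AC160336.1 (0.74) and Cd300lb (0.731). The combinations share libraries and depth, and the values are a description of which classes hold these genes.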

How the data were processed

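CD45-enriched dorsal skin cells were profiled by 10x 3′ single-cell RNA sequencing, 1 library a group (WTctrl, WTUV, RPUV). The authors deposited unnormalised UMI counts for each cell, from Cell Ranger (6.1.1 in the file headers) on mm10. Cells were kept with under 10% mitochondrial UMIs and more than 200 and under 4000 genes (6000 in WTUV), after the study's methods. They were integrated and clustered with Seurat 5.3.0 (sctransform 0.4.2, 3000 features, 30 dimensions, resolution 0.8) and divided further with scanpy and Leiden. Clusters were named by marker panels, by limits set after clusters were seen; the others stayed unnamed. Deposited counts were summed by class and library and given as CPM. Levels have exact Poisson intervals, folds conditional binomial and shares Clopper-Pearson ones, at 95%; with a count of 0 the floor is 3 UMIs. No doublets were removed, and dropping cells in the top 5% by Scrublet was an alternative.

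Named genes are the 7 members, other iron genes past 2-fold in macrophages with at least 20 UMIs in a pair of libraries (at most 12), the 5 genes most like Cp and Slc40a1, Ptgs2 and Lyve1; marker genes of other classes and Heph, Hephl1, Ccr2 and Ftl1-ps1 were added after values were seen. The members and lists were chosen with earlier results of these data known. Fold counts and intervals were tested on simulated data. The libraries held 34985549, 82722013 and 37689836 UMIs in 5977, 6149 and 7240 barcodes. Classes under 50 cells in a library were left out of folds and figures. Cp levels of lymphatic endothelial cells, a class under that limit, are given with their cell numbers.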

Additional observations from a re-analysis of the deposited data

Results flagged for a closer look

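Cp in RPUV against WTctrl went opposite ways in 2 cell classes. The fold was 2.85 in fibroblasts and 0.181 in macrophages, each from 1 library a group, and the difference between the classes was not tested. In fibroblasts, 128 of the 211 UMIs of RPUV came from 15 cells of cluster 11.6, and without that cluster the fold was 1.54 (1.1 to 2.18).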

How the results depend on the processing

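Each value was recomputed under the alternatives, with 0 of 78 recomputed main values reversed. These main values were folds of Cp in macrophages and their parts, the Ftl1 fold of RPUV over WTctrl, and counts of other iron genes. Counts cannot reverse, and the Cp folds include the value that chose the members, so this 0 is no measure of stability for the members. The log2 fold of Cp in macrophages, WTUV over WTctrl, was -1.59, and became -1.75 without integration, -1.26 with cells thinned to 2000 UMIs and -0.42 with the same mix of clusters. The same mix covers 1046 of the 2309 WTUV macrophages. The next fold compares other libraries. The log2 fold of Cp in macrophages, RPUV over WTctrl, was -2.47, and became -2.03 with thinning and -2.23 as the mean over cells. With Lyve1 it was -2.20, and became -3.08 without integration and -2.78 with the Lyve1 limit of 100 CPM. Without Lyve1 it was -2.74, and became -3.88, -4.00 and, with thinning, -2.31. Ftl1 in macrophages, RPUV over WTctrl, was 0.73, and became 0.77 with clusters named by their best panel and 0.79 as the mean over cells. Without a minimum of UMIs, other iron genes past 2-fold went from 2 to 6 higher and 0 to 4 lower (WTUV over WTctrl), from 1 to 3 higher and 1 to 6 lower (RPUV over WTUV) and from 1 to 5 lower (RPUV over WTctrl), and the limit of 4000 genes gave 3 higher in RPUV over WTUV; genes of few UMIs enter by construction. Among the other values, 623 stayed within their counting interval, 166 moved without turning and 13 reversed. Ftl1 of WTUV over WTctrl reached -0.014 (4000 genes), -0.042 (thinned) and -0.18 (same mix) in all macrophages; -0.003 (no integration), -0.015 (4000 genes), -0.13 (thinned) and -0.064 (Lyve1 UMIs of single cells) with Lyve1; and -0.017 (4000 genes), -0.018 (thinned) and -0.011 (median-of-ratios scaling) without. Slc40a1 without Lyve1, RPUV over WTUV, became -0.52 without integration. With the same mix, which leaves 1 shared cluster, RPUV over WTUV became -0.48 for Slc11a1 and -0.59 for Slc11a2. For values without a named reason, the cause was not tested. Median-of-ratios scaling subtracts the median log2 fold of all genes, which was within 0.08 of 0 in macrophages, 0.14 in fibroblasts (RPUV over WTctrl) and -0.14 in keratinocytes (WTUV over WTctrl). Without fibroblast cluster 11.6 the log2 fold of Cp in fibroblasts went from 1.51 to 0.62. No paired analysis was possible because each group has 1 library. Depth limits Slc40a1 and Slc11a2, and classes near 50 cells.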
